A study of Mus musculus with 64 samples.

Results

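Potassium channel genes were described in the striatum and cerebral cortex of a mouse model of Huntington's disease. They were taken as every row of the deposited count table whose symbol begins Kcn, after symbols ending in os or containing -ps were left out. The rule found 97 of the 48795 rows: 94 protein-coding genes and 3 antisense non-coding transcripts (Kcnq1ot1, Kcnmb4os1 and Kcnmb4os2), and it dropped 2 rows, Kcnd3os and Kcnab3os. All 97 were found in the GENCODE M21 annotation of mouse build GRCm38, on 19 chromosomes. By role they comprised 67 pore-forming subunits, 27 auxiliary or silent subunits and the 3 non-coding transcripts.

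The study measured RNA in 32 C57BL/6 mice, each giving 1 striatal and 1 cortical library, at 6 months of age. The 4 genotypes, with 4 females and 4 males each, were wild type, Polq+/- (labelled as heterozygous for Polq, which encodes DNA polymerase theta), Q140 (labelled as heterozygous for a knock-in of an expanded CAG repeat in the endogenous huntingtin gene Htt) and Q140 Polq+/- (carrying both). The labels name no other allele or treatment. The knock-in lies in the endogenous gene, so it is not limited to a cell type. Comparing Q140 with wild type, and Q140 Polq+/- with Polq+/-, asks what the knock-in does to these genes on each Polq background. Those comparisons share no library.

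Potassium channels let potassium ions leave or enter the cell along the electrochemical gradient. Voltage-gated pores repolarise the action potential and set firing rate, inward rectifiers and tandem-pore leak channels hold the resting potential, and calcium-activated or sodium-activated pores follow activity. A pore is assembled from several subunits, and silent or auxiliary subunits, which form no pore alone, change its gating and its place in the membrane. In the striatum, spiny projection neurons are known for a strong inward rectifier current and a slowly inactivating A-type current, which together hold them silent between bouts of input.

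Reads assigned to genes ranged from 28706673 to 40622382 per striatal library and from 30888166 to 40107413 per cortical library. Mean Polq in striatum was 3.14 ± 0.501 CPM (SD, n = 8; read counts scaled to library size) in wild type, 1.66 ± 0.647 in Polq+/-, 3.1 ± 0.413 in Q140 and 1.35 ± 0.94 in Q140 Polq+/-. Values in mice with the Polq+/- label ran from 0.186 to 2.42 CPM, a wide spread for 1 genotype, so groups are named by label only and the counts were repeated without the 4 such mice of lowest Polq. In striatum 3 libraries stood apart: wild type M2 had a summed level of 7 cerebellar granule cell markers of 262 CPM against a group median of 78.0, Polq+/- F3 had a summed level of 9 choroid plexus markers of 1430 CPM against a median of 34.4, and wild type M3, set apart in an earlier look at these data, held the lowest Kcnh1 and Kcnq1ot1 of its group. Results are given with them and, where it matters, without them. CPM values were scaled by TMM within each tissue, which is meant to correct for differences in library composition. How fully it did so here was not tested. Mice are named by sex and number within a group.

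In wild-type striatum the 5 most abundant members per transcript length, in mean FPKM (fragment counts divided by gene length and library size), were Kcnip2 at 117 ± 9.27 (SD, n = 8), Kcnj4 at 112 ± 6.17, Kcnab1 at 68.7 ± 4.73, Kcnh3 at 56.6 ± 1.82 and Kcnab2 at 54.6 ± 2.83. The ranges of Kcnip2 (107 to 134) and Kcnj4 (103 to 124) overlapped, as did those of Kcnh3 (54.3 to 59.3) and Kcnab2 (51.3 to 58.7), so neither pair is ordered beyond the spread between mice. Kcnip2 encodes a calcium-binding KChIP subunit of A-type channels, Kcnj4 an inward rectifier pore, Kcnab1 and Kcnab2 cytoplasmic beta subunits of Kv1 channels, and Kcnh3 a pore of the EAG family. Also abundant were Kcnd2, the A-type pore that KChIP subunits bind, at 48.8 ± 2.83, the leak channel Kcnk1 at 44.5 ± 1.87, the sodium-activated pore Kcnt1 at 44 ± 4.86 and the KChIP gene Kcnip3 at 36.6 ± 3.64. In wild-type cortex the order differed: Kcnab2 led at 104 ± 2.77, followed by Kcnab3 at 60.8 ± 5.68, Kcnh3 at 60.7 ± 3.36 and Kcnj9 at 60.5 ± 3.16. A mean above 1 FPKM was reached by 60 members in striatum and 68 in cortex.

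Between wild-type tissues, tested in a single fit that treats each mouse as a block, 82 members passed the filter on low counts. Of these, 26 were higher and 47 lower in striatum. Over all genes 77.2% were called, 39.1% higher and 38.1% lower, so the members leaned towards cortex (median log2 difference -0.59, against 0.02 over all genes). Called means an adjusted p under 0.05 (edgeR's quasi-likelihood test, Benjamini-Hochberg over all genes tested), here and throughout. The Kv1 pore Kcna5 had the largest striatal excess, 13.9 ± 1.81 FPKM against 0.44 ± 0.131 in cortex (log2 difference 4.95 ± 0.0939, SE; adjusted p = 1.52e-32). Kcnab1 followed among members above 1 CPM (68.7 ± 4.73 against 10.4 ± 0.559 FPKM; 2.70 ± 0.0306), with the A-type Kv1 pore Kcna4 (21.5 ± 1.63 against 3.64 ± 0.278 FPKM; 2.54 ± 0.0409) and the small-conductance calcium-activated pore Kcnn3 (7.6 ± 0.836 against 1.62 ± 0.126 FPKM; 2.20 ± 0.0495). The inward rectifiers split: Kcnj2 (log2 difference 2.14 ± 0.0945) and Kcnj4 (1.18 ± 0.0272) were higher in striatum, and the G protein-gated members Kcnj6 (-5.44 ± 0.111), Kcnj3 (-3.32 ± 0.0491) and Kcnj9 (-2.67 ± 0.029) were lower. Kcnc1 (-1.49 ± 0.0681) and Kcnc4 (-3.93 ± 0.0944), Kv3 pores of fast-spiking neurons, were lower in striatum. The leak channel Kcnk4 was at 0.46 ± 0.0735 FPKM in striatum and 15.9 ± 0.538 in cortex (-5.12 ± 0.0907). As a check of the dissections, all 16 markers of spiny projection neurons were higher in striatum and all 10 markers of cortical excitatory neurons were higher in cortex.

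**Figure D1:**
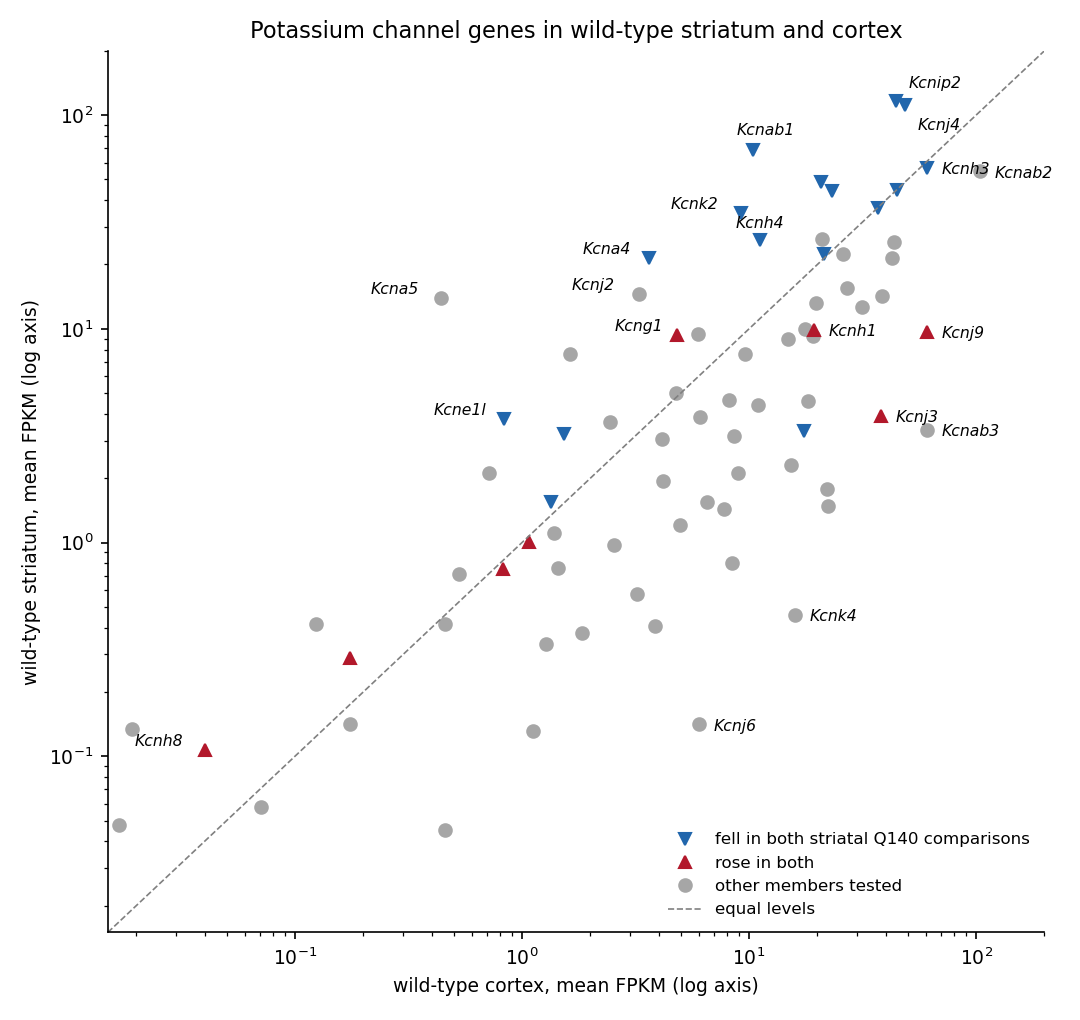
Mean FPKM of tested members in wild-type striatum (vertical log axis) and wild-type cortex (horizontal log axis), 8 mice each. Downward triangles are members that fell in both striatal Q140 comparisons, upward triangles those that rose in both, grey circles the others, and the dashed line marks equal levels; Kcnip2, Kcnj4 and Kcnab1 lie above the line, and Kcnj3 and Kcnj9 lie below it.

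For members that the results turn on, the bases before the start site are shown for a few named examples, which do not stand for all members that moved the same way. They come from RefSeq (GRCm38.p6), whose promoter table held 71 of the 97 members, and only the 250 bases upstream of the start are printed. Kcnj4 and Kcnip2 are the most abundant members in striatum and fell in Q140, and Kcnj3 rose. Capitals mark GGGCGG, the GC box bound by Sp1-type factors, and TGACG, the core of a cyclic AMP response element, read on either strand, with overlapping matches joined.
Kcnj4, chr15:79505242-79505491, minus strand, overlapping no annotated gene: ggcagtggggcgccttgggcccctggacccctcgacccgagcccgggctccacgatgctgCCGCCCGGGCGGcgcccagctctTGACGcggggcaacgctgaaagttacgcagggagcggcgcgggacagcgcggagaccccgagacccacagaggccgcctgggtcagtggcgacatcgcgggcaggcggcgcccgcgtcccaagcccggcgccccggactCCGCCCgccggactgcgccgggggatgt
Kcnip2, chr19:45816064-45816313, minus strand, overlapping no annotated gene: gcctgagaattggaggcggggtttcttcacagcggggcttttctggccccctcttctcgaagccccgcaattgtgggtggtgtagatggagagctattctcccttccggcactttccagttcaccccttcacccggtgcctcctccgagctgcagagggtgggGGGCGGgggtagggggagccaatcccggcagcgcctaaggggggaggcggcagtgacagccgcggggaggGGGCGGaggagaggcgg
Kcnj3, chr2:55435720-55435969, plus strand, inside an exon of the antisense long non-coding RNA Gm26794: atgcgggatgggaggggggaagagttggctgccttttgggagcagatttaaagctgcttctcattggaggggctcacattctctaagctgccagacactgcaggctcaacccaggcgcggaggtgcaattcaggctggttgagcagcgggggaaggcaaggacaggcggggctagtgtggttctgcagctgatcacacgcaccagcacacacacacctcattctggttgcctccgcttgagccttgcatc
The Kcnj4 window held 35 CG pairs, 3 GGGCGG matches and 1 TGACG match, the Kcnip2 window 15 CG pairs and 2 GGGCGG matches, and the Kcnj3 window 7 CG pairs and none of these motifs. The median window held 6 CG pairs over all promoter entries and 7 over those of the members, so the Kcnj3 window was typical in this. Over all 27025 symbols in the table, 35.4% had GGGCGG in this window, 19.8% TGACG and 14.3% TATAAA, the TATA box. Among the 71 members the shares were 59.2% (42 genes), 22.5% (16) and 4.23% (3). GGGCGG was found in 10 of the 14 listed members that fell in both striatal Q140 comparisons (71.4%) and in 3 of the 6 that rose in both, so the absence of GGGCGG from the Kcnj3 window is not shared by all members that rose. TGACG was found in 2 of the 14 (14.3%) and 1 of the 6 (16.7%). These matches describe letters only and say nothing of binding. The words inside an exon, in the label of the Kcnj3 window, mean only that the window and an exon of Gm26794 share any base. Whether the whole window lies inside that exon was not checked.

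In striatum, Q140 mice differed from wild type in 29 of the 81 members that passed the filter, 11 higher and 18 lower. Over all genes tested 32.1% were called, 16.9% higher and 15.2% lower, so the share of members that rose (13.6%) was near the background and the share that fell was 22.2%. The members' median log2 fold change was -0.05, against 0.00 over all 18270 genes. In Q140 Polq+/- against Polq+/- the counts were 13 higher and 23 lower of 81, beside a background of 31.4% called, 16.1% higher and 15.3% lower. Of the members called higher, 9 were shared, 81.8% of the first list and 69.2% of the second. All 18 that fell in the first comparison fell in the second, 78.3% of that list, and none moved in opposite directions. The same shares over all genes are not given here, so this agreement is not shown to be particular to channel genes. The split changed on log2(FPKM + 0.1) tested with limma, which divides by the library total alone and is also another test. The members then counted 16 higher and 13 lower against wild type and 15 higher and 16 lower on the Polq+/- background. The higher share of all called genes moved from 52.7% to 74.7% and from 51.3% to 75.9%. The parts of scaling and of the test in this were not told apart. With DESeq2's size factors in edgeR, which keeps the test, 1 of 132 called values of named members was lost. Of the 132 values of named members that passed the test, 0 changed direction under any setting tried. Without the 3 libraries that stood apart the counts were 12 higher and 20 lower, and 14 higher and 27 lower.

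The genotypes were spread unevenly over the plate columns that the labels' well addresses give. In striatum, wild type had 4 libraries in column 1, 2 in column 2 and 1 each in columns 3 and 4, and Polq+/- had 2, 3 and 3 in columns 1, 2 and 3. Q140 had 2, 3 and 3 in columns 2, 3 and 4, and Q140 Polq+/- had 2, 1, 1 and 4 in columns 1 to 4. With the plate column as a term the members counted 10 higher and 19 lower against wild type, and 9 higher and 21 lower on the Polq+/- background. Striatal calls lost with that term were those of Kcnj8 and Kcnq1ot1 in both comparisons and of Kcnab3, Kcnip4, Kcnj14, Kcnj16 and Kcns3 on the Polq+/- background. Their adjusted p with the term were 0.191 and 0.053 for Kcnj8, 0.0538 and 0.17 for Kcnq1ot1, 0.113 for Kcnab3, 0.0501 for Kcnip4, 0.128 for Kcnj14, 0.0984 for Kcnj16 and 0.138 for Kcns3. The estimates kept their direction.

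**Figure D2:**
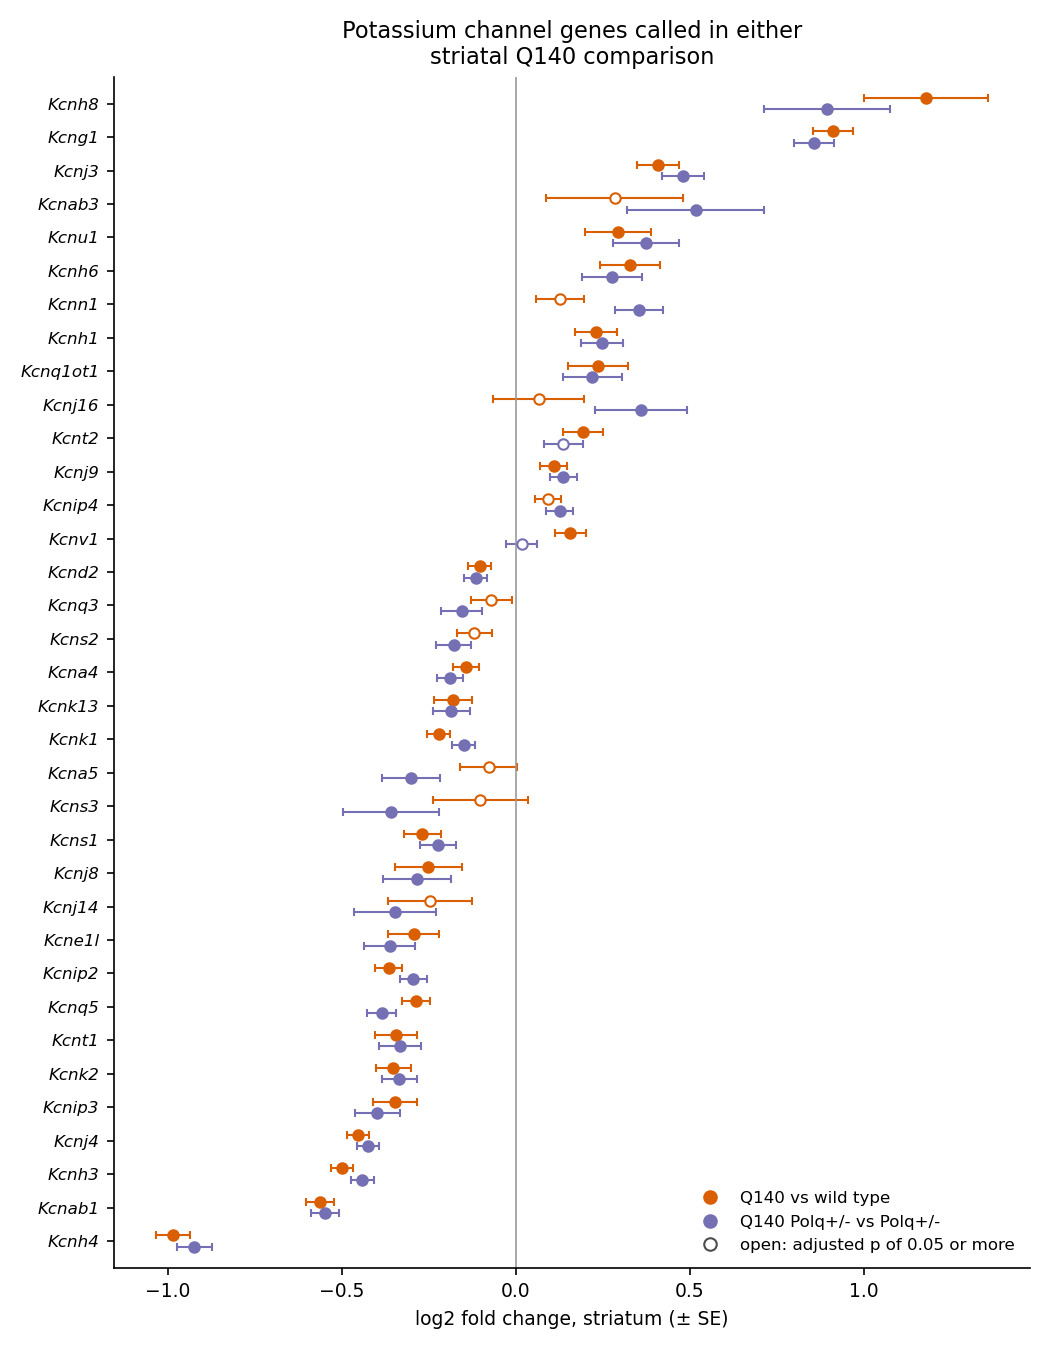
Log2 fold change ± SE in striatum for members called in either Q140 comparison, 8 mice a group, ordered by the sum of both estimates. Filled circles passed an adjusted p of 0.05 and open circles did not; the estimates of each gene lie on the same side of 0, from Kcnh4 at -0.99 and -0.92 to Kcnh8 at 1.18 and 0.89.

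Markers of the main striatal cell type moved with these calls. Of 16 markers of spiny projection neurons, all detected, 15 fell against wild type (median log2 fold change -0.63), and 14 fell and 1 rose on the Polq+/- background (-0.60). Their summed level ranged from 18000 to 21600 CPM in wild type, 19400 to 20600 in Polq+/-, 11200 to 13100 in Q140 and 11800 to 12900 in Q140 Polq+/-, so carriers and non-carriers did not overlap. Their part in the results on channel genes was not tested, and in whole tissue fewer cells of a type and less RNA per cell cannot be told apart.

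The EAG family of voltage-gated pores held the largest changes in both directions. Kcnh4 (ENSMUSG00000035355, GRCm38 chr11:100740376-100759942, minus strand), a pore of the ELK branch of this family, was measured at 85.0, 107 and 119 CPM (lowest, median and highest of 8 mice) in wild type, 95.4, 107 and 112 in Polq+/-, 48.7, 52.4 and 56.6 in Q140, and 52.1, 56.1 and 58.9 in Q140 Polq+/-. Every carrier lay under every non-carrier. The log2 fold change was -0.99 ± 0.0496 (SE; edgeR adjusted p = 2.86e-17) against wild type and -0.92 ± 0.0494 (1.08e-16) on the Polq+/- background. Its relative Kcnh3 ran from 196 to 219 CPM in wild type (median 204), 195 to 224 in Polq+/- (202), 133 to 152 in Q140 (150) and 147 to 158 in Q140 Polq+/- (151). Again no carrier overlapped a non-carrier, and the log2 fold changes were -0.50 ± 0.0326 (adjusted p = 6.26e-15) and -0.44 ± 0.0325 (1.64e-13). The remaining calls in this family of 8 were rises. Kcnh1, the founding EAG pore, ran from 53.5 to 83.5 CPM in wild type (median 74.3), 65.1 to 86.3 in Polq+/- (72.6), 82.0 to 91.0 in Q140 (86.6) and 83.2 to 95.8 in Q140 Polq+/- (86.4). All 16 carriers were above their control median but the ranges overlapped (log2 0.23 ± 0.0605, adjusted p = 0.00343, and 0.25 ± 0.0604, 0.00175). Kcnh6, an ERG-type pore at a low level, ran from 3.12 to 4.41 CPM in wild type (median 3.65), 3.35 to 4.54 in Polq+/- (3.77), 3.87 to 5.23 in Q140 (4.5) and 3.67 to 5.42 in Q140 Polq+/- (4.89). Its log2 fold changes were 0.33 ± 0.086 (adjusted p = 0.00289) and 0.28 ± 0.0852 (0.0107), with ranges that overlapped. Kcnh8, of the same ELK branch as Kcnh3 and Kcnh4, showed the largest rise of any member but at 0.5 ± 0.156 CPM in wild type and 1.14 ± 0.184 in Q140 (SD, n = 8; log2 1.18 ± 0.178, adjusted p = 1.6e-06). It lies under the 1 CPM minimum for named genes and was picked out after its values were seen.

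**Figure D3:**
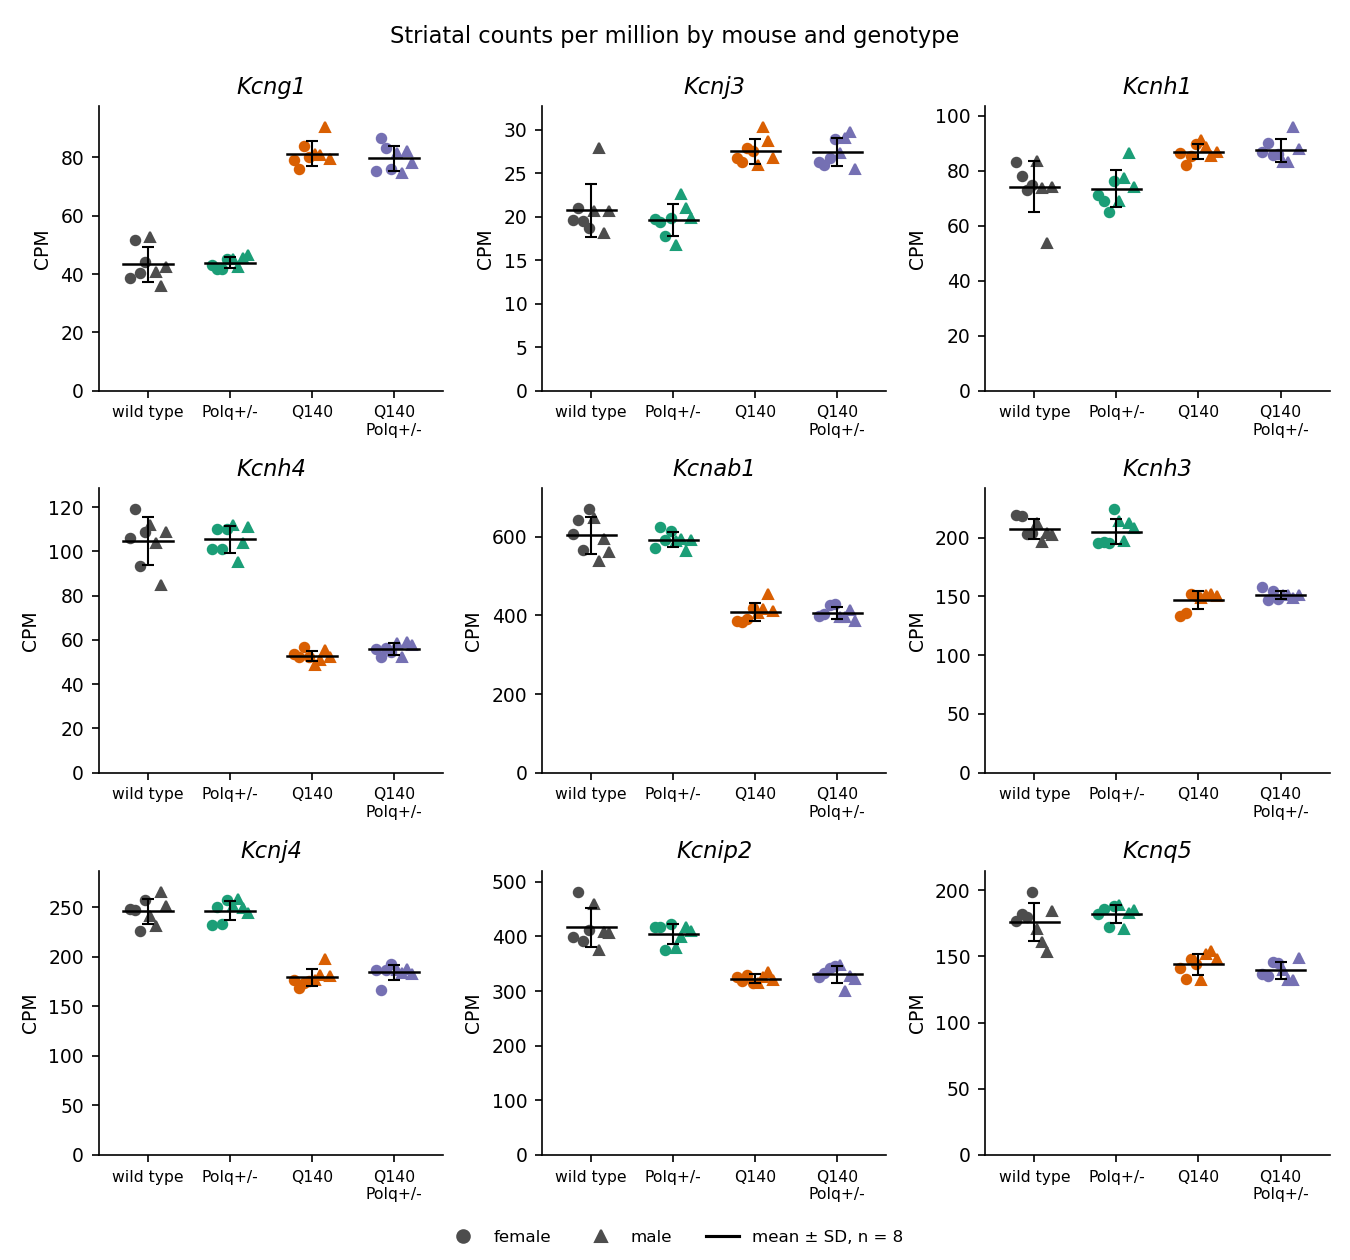
Striatal CPM of 9 members in each mouse (circles female, triangles male) by genotype, with the mean and SD of 8 mice; axes start at 0. Kcng1 was higher in every Q140 carrier than in any non-carrier, Kcnh4, Kcnab1, Kcnh3, Kcnj4 and Kcnip2 were lower in every carrier, and 1 wild-type mouse lay among the carriers for Kcnj3.

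Among other voltage-gated pores, falls outnumbered rises. In the Kv7 family, whose members carry the M current that brakes repetitive firing, Kcnq5 ran from 153 to 199 CPM in wild type (median 179), 171 to 189 in Polq+/- (184), 132 to 154 in Q140 (146) and 132 to 149 in Q140 Polq+/- (138). The carriers were low in both comparisons, with a slight overlap against wild type and none on the Polq+/- background (log2 -0.29 ± 0.0409, adjusted p = 6.52e-07, and -0.39 ± 0.0409, 1.26e-09). Kcnq3, of the same family, was called only on the Polq+/- background (-0.07 ± 0.0588, adjusted p = 0.39, and -0.16 ± 0.0588, 0.0415), and the difference between backgrounds was not called for any member. In the Kv1 family of 8, the A-type pore Kcna4 fell in both comparisons (-0.14 ± 0.0379 and -0.19 ± 0.0379), and Kcna5 fell on the Polq+/- background (-0.30 ± 0.083, adjusted p = 0.0052) with an estimate of -0.08 ± 0.083 (0.521) against wild type. The A-type pore Kcnd2 also fell in both (-0.10 ± 0.033 and -0.12 ± 0.033). The Kv3 pores Kcnc1, Kcnc2 and Kcnc4 were called in neither comparison.

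Silent subunits pair with Kv2 pores and modify them. Kcng1 (ENSMUSG00000074575, GRCm38 chr2:168260117-168281736, minus strand) rose most among members above 1 CPM: 35.8, 41.5 and 52.6 CPM (lowest, median, highest) in wild type, 41.7, 44.1 and 46.5 in Polq+/-, 76.0, 80.6 and 90.4 in Q140, and 74.5, 79.9 and 86.8 in Q140 Polq+/-. No carrier overlapped a non-carrier. The log2 fold change was 0.91 ± 0.0568 (adjusted p = 1.32e-14) against wild type and 0.86 ± 0.0567 (5.83e-14) on the Polq+/- background. The other called members of this group of 10 moved less. Kcns1 fell in both comparisons (-0.27 ± 0.0529 and -0.22 ± 0.0523), and Kcnv1 was called higher against wild type alone. Kcns2 (-0.18 ± 0.05) and Kcns3 (-0.36 ± 0.137) were called lower on the Polq+/- background alone. Against wild type their estimates were -0.12 ± 0.05 (adjusted p = 0.0647) and -0.10 ± 0.137 (0.624). Kcnv1 ran from 48.7 to 62.9 CPM in wild type (median 60.2), 57.3 to 63.8 in Polq+/- (58.2), 60.1 to 67.4 in Q140 (64.6) and 53.1 to 68.5 in Q140 Polq+/- (59.6). Its log2 fold change was 0.16 ± 0.0449 (adjusted p = 0.00606) against wild type, and the groups overlapped throughout.

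Of the inward rectifiers, 15 rows with 12 tested, the classical strong rectifier Kcnj4 (ENSMUSG00000044216, GRCm38 chr15:79483714-79505241, minus strand) fell and its close relative Kcnj2 did not pass the test. Kcnj4 was at 226, 248 and 266 CPM (lowest, median, highest) in wild type, 232, 249 and 258 in Polq+/-, 169, 177 and 198 in Q140, and 167, 187 and 193 in Q140 Polq+/-. Carriers and non-carriers did not overlap (log2 -0.45 ± 0.0322, adjusted p = 4.9e-14, and -0.42 ± 0.0321, 3.42e-13). Kcnj2 had medians of 81.5, 83.2, 78.5 and 79.9 CPM in the same order of groups, and its log2 fold change against wild type was -0.04 ± 0.0776 (adjusted p = 0.731). Of the G protein-gated pores, Kcnj3 and Kcnj9 rose. Kcnj5 and Kcnj6, both under 1 CPM at the mean, were not called, with estimates against wild type of -0.28 ± 0.279 (adjusted p = 0.48) and -0.19 ± 0.228 (0.567). Kcnj3 ran from 18.1 to 27.9 CPM in wild type (median 20.1), 16.7 to 22.6 in Polq+/- (19.7), 25.9 to 30.3 in Q140 (27.2) and 25.5 to 29.7 in Q140 Polq+/- (27.1). The only non-carrier inside the carriers' range was wild type M2, at 27.9 CPM, the library with cerebellar markers (log2 0.41 ± 0.0598, adjusted p = 1.12e-06, and 0.48 ± 0.06, 5.34e-08). That library also had the highest summed level of 10 cortical excitatory markers in its group, 62.6 CPM against a median of 33.0. Those markers ran from 29.2 to 62.6 CPM in wild type and 29.8 to 36.6 in Polq+/-. In Q140 they ran from 35.1 to 39.3, and in Q140 Polq+/- from 33.6 to 39.9. Their part in the rises of Kcnj3 and Kcnj9 was not tested. Kcnj9 rose slightly, from medians of 43.0 to 45.9 CPM and 41.7 to 46.1 CPM (log2 0.11 ± 0.0388, adjusted p = 0.0276, and 0.14 ± 0.0388, 0.00587), and the first of these was lost without the 3 libraries that stood apart.

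Inward rectifiers of glia and vessels were read beside markers of those cells. Kcnj10, the main potassium-buffering channel of astrocytes, had striatal medians of 141 CPM in wild type, 138 in Polq+/-, 140 in Q140 and 140 in Q140 Polq+/- (log2 -0.02 ± 0.0526 against wild type, adjusted p = 0.816). Its partner Kcnj16 rose on the Polq+/- background (0.36 ± 0.132, adjusted p = 0.035) but had an estimate of 0.07 ± 0.131 (0.755) against wild type, and that rise was lost when any of 7 single libraries was left out. Of 10 astrocyte markers, all detected, 3 fell against wild type and 4 on the Polq+/- background, with summed levels of 3640 to 4600 CPM in wild type, 4180 to 4880 in Polq+/-, 3760 to 4080 in Q140 and 3760 to 4080 in Q140 Polq+/-. Kcnj8, the ATP-sensitive channel of pericytes, fell by small margins (-0.25 ± 0.0965, adjusted p = 0.0436, and -0.28 ± 0.0972, 0.0225), and the first was lost when any of 10 single libraries was left out. Of 11 endothelial and mural markers, 9 and 6 fell in the same comparisons, with summed levels of 305 to 334 CPM in wild type, 269 to 332 in Polq+/-, 249 to 286 in Q140 and 258 to 290 in Q140 Polq+/-. The part of either marker list was not tested. Kcnj14 was called lower on the Polq+/- background only (-0.35 ± 0.119, adjusted p = 0.0232), with an estimate of -0.25 ± 0.12 (0.119) against wild type.

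Leak, calcium-activated and sodium-activated pores gave smaller changes. Of the 14 tandem-pore leak channels, 10 were tested and 3 were called, all lower in both comparisons: Kcnk2, a channel gated by stretch and fatty acids (-0.35 ± 0.05 and -0.34 ± 0.05), Kcnk1 (-0.22 ± 0.0324 and -0.15 ± 0.0324) and Kcnk13 (-0.18 ± 0.0543 and -0.19 ± 0.0542). Kcnk13, a channel known from microglia, had medians of 10.5, 10.1, 8.98 and 9.03 CPM in wild type, Polq+/-, Q140 and Q140 Polq+/-. Of 10 microglial markers, all detected, 8 fell against wild type by edgeR (median log2 -0.16) and 10 fell with all 16 carriers against 16 non-carriers. On the Polq+/- background edgeR called 0 of them (median -0.09), with 4 at an unadjusted p under 0.05, and DESeq2 called 3 lower. On log2(FPKM + 0.1) the called falls were 2, 0 and 0 of 10 against wild type, on the Polq+/- background and with all carriers. Their summed levels were 459 to 511 CPM in wild type, 439 to 494 in Polq+/-, 408 to 461 in Q140 and 414 to 488 in Q140 Polq+/-, and their part in the fall of Kcnk13 was not tested. Kcnk2 ran from 148 to 209 CPM in wild type, 156 to 195 in Polq+/-, 127 to 151 in Q140 and 129 to 144 in Q140 Polq+/-, with slight overlap against wild type only. Of the sodium-activated pores, Kcnt1 fell from a median of 438 to 339 CPM and from 436 to 356 CPM (log2 -0.34 ± 0.0608 and -0.33 ± 0.0607). Kcnt2, at much lower levels, ran from 9.36 to 11.2 CPM in wild type (median 10.2), 8.65 to 11.4 in Polq+/- (10.7), 10.5 to 12.3 in Q140 (11.6) and 10.5 to 13.8 in Q140 Polq+/- (11.4). It rose against wild type (log2 0.19 ± 0.0565, adjusted p = 0.00729), with overlap. Kcnu1, a large-conductance pore best known from sperm, rose from a mean of 2.87 to 3.51 CPM and from 2.89 to 3.75 CPM (0.29 ± 0.0958 and 0.38 ± 0.0951). The small-conductance pore Kcnn1 was called higher on the Polq+/- background (0.35 ± 0.0684, adjusted p = 8.68e-05), with an estimate of 0.13 ± 0.0686 (0.161) against wild type. The large-conductance pore Kcnma1 had an estimate of 0.05 ± 0.0778 against wild type (adjusted p = 0.705), and none of the 3 tested BK beta subunits was called.

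Auxiliary subunits of Kv1 and Kv4 channels fell among the most abundant members. Kcnab1 (ENSMUSG00000027827, GRCm38 chr3:65109384-65378223, plus strand), which speeds inactivation of Kv1 channels, was at 538, 600 and 669 CPM (lowest, median, highest) in wild type, 564, 591 and 623 in Polq+/-, 383, 408 and 453 in Q140, and 385, 401 and 429 in Q140 Polq+/-. Carriers and non-carriers did not overlap (log2 -0.56 ± 0.0393, adjusted p = 3.32e-14, and -0.55 ± 0.0393, 7.02e-14). The related Kcnab2 had an estimate of -0.05 ± 0.0378 (adjusted p = 0.296) against wild type. Kcnab3 was called higher on the Polq+/- background (0.52 ± 0.198, adjusted p = 0.0469), with an estimate of 0.28 ± 0.197 (0.297) against wild type. Its call was lost when any of 16 single libraries was left out. Kcnip2 (ENSMUSG00000025221, GRCm38 chr19:45791839-45816061, minus strand) was at 375, 407 and 482 CPM in wild type, 375, 413 and 423 in Polq+/-, 314, 323 and 335 in Q140, and 300, 330 and 347 in Q140 Polq+/-. The groups did not overlap (log2 -0.36 ± 0.0392, adjusted p = 1.74e-09, and -0.30 ± 0.0392, 1.58e-07). Kcnip3 fell by a like amount (-0.35 ± 0.064 and -0.40 ± 0.0639). Kcnip4 was called higher on the Polq+/- background (0.13 ± 0.0378, adjusted p = 0.009), with an estimate of 0.09 ± 0.0378 (0.0588) against wild type. Of the KCNE subunits, Kcne1l fell from a mean of 5.93 to 4.83 CPM and from 5.97 to 4.66 CPM (-0.29 ± 0.0722 and -0.36 ± 0.0722).

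Kcnq1ot1 (GRCm38 chr7:143203458-143296549, minus strand), the long imprinted RNA inside and antisense to Kcnq1 (chr7:143106362-143427042, plus strand), ran from 15.6 to 29.5 CPM in wild type, 23.0 to 29.2 in Polq+/-, 25.6 to 32.6 in Q140 and 24.5 to 35.3 in Q140 Polq+/-. The rises were at the threshold (log2 0.24 ± 0.0855, adjusted p = 0.0326, and 0.22 ± 0.0849, 0.0473), and the first was lost without the 3 libraries that stood apart. The libraries were stranded by protocol but the strand setting of the counting was not given, so whether reads of Kcnq1ot1 and Kcnq1, or of Kcnab3 and its antisense partner, were kept apart is not known.

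Adding the mice of both Polq labels gave 16 carriers against 16 non-carriers in striatum. By this comparison 15 members were higher and 25 lower, beside 44.8% of all genes called (23.6% higher, 21.2% lower). The Kv7 pores Kcnq3, Kcnq5 and Kcnq1 were lower, and no leak channel was higher. Kcnq1 had few reads and was called in neither separate comparison. Its means were 0.241 CPM in wild type, 0.267 in Polq+/-, 0.178 in Q140 and 0.154 in Q140 Polq+/-.

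**Figure D4:**
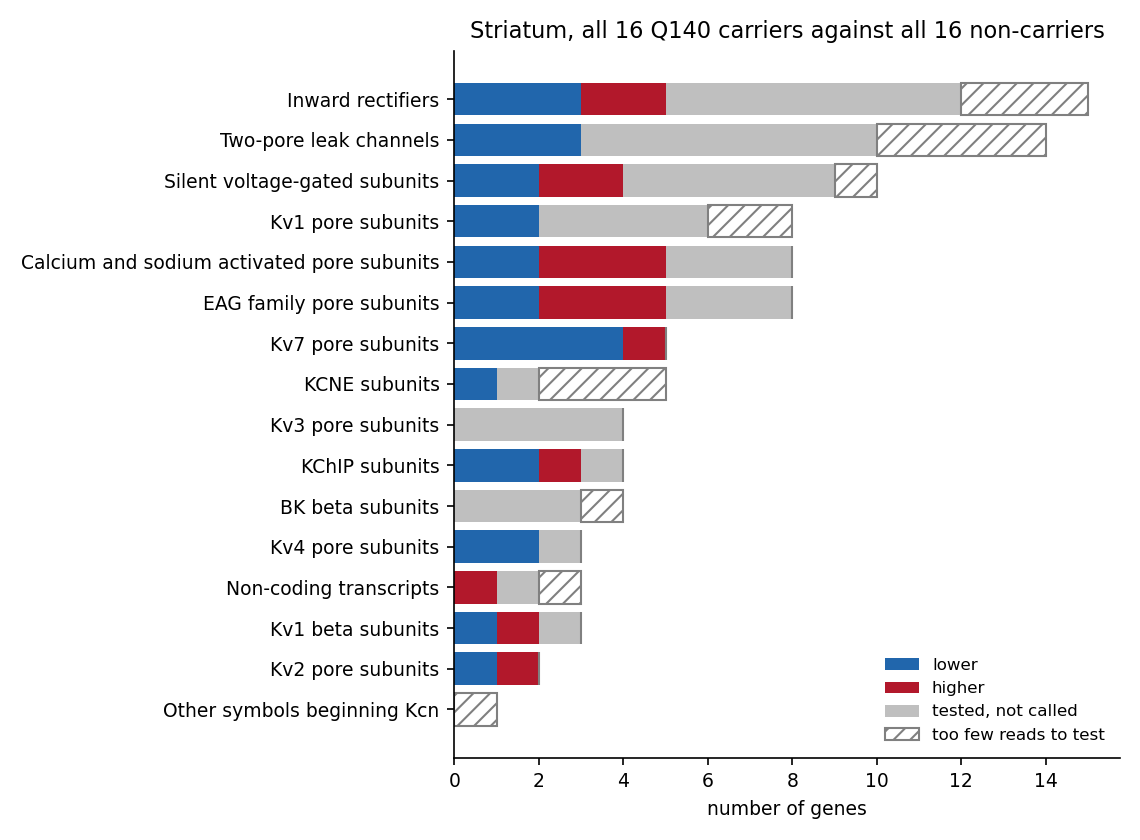
Number of members in each family that were lower, higher, not called or too rarely read to test in striatum, 16 Q140 carriers against 16 non-carriers. No leak channel was higher.

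Calls in striatum were also set beside tissue preference. Members' calls between wild-type tissues were set beside their calls in Q140 Polq+/- against Polq+/-, which uses no wild-type library. Of 26 members higher in wild-type striatum, 16 fell (61.5%) and 3 rose (11.5%). Of 46 members lower in striatum, 4 fell (8.7%) and 8 rose (17.4%), and of 9 without a tissue call 3 fell and 2 rose. Over all genes, 24.6% of those higher in striatum fell and 10.3% rose, and 9.78% of those lower in striatum fell and 25.7% rose. Exceptions ran in both directions: Kcng1 was higher in striatum than cortex and rose, Kcns1 was lower in striatum and fell, and Kcnj2 and Kcnn3, both higher in striatum, were not called in either Q140 comparison (Kcnn3 was lower with all 16 carriers).

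Genes outside the Kcn symbols whose proteins work with these channels moved more often up. Of 16 such partners, 14 were tested. Against wild type 6 rose and 1 fell, and on the Polq+/- background 6 rose and 3 fell. Over all genes 16.9% were higher and 15.2% lower against wild type, and 16.1% and 15.3% on the Polq+/- background. The list is short and was chosen with earlier results known, and its split under other scaling is not given here. Dpp10, a peptidase-like subunit of A-type channels, rose from 62.8 to 88.2 CPM at the mean against wild type (log2 0.49 ± 0.0567) and by 0.54 ± 0.0568 on the Polq+/- background, and its relative Dpp6 rose slightly (0.15 ± 0.031 and 0.12 ± 0.0309). Lrrc55, a gamma subunit of large-conductance channels, rose (0.51 ± 0.0669 and 0.56 ± 0.067), as did the pacemaker channel Hcn3 (0.37 ± 0.0495 and 0.37 ± 0.0497) and Lgi1, a secreted partner of Kv1 complexes (0.18 ± 0.0309 and 0.12 ± 0.0309). Cntnap2, which clusters Kv1 channels on axons, was called higher against wild type alone (0.13 ± 0.042). Abcc8, the sulfonylurea receptor of ATP-sensitive channels, fell in both (-0.25 ± 0.0763 and -0.27 ± 0.0759), and Abcc9 (-0.17 ± 0.0659) and Hcn2 (-0.11 ± 0.0435) fell on the Polq+/- background.

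The Polq label changed no member that passed the test. In striatum 0 of 81 members were called between Polq+/- and wild type (0.0493% of all genes called) and 0 between Q140 Polq+/- and Q140 (0.0547%), with 2 and 3 members at an unadjusted p under 0.05. The test of whether the Q140 effect differed by Polq label called 0 of 81 members and 0% of genes, with 3 members under an unadjusted 0.05, and DESeq2 also called 0 members in all of these. For the members with the largest Q140 effects the difference in effect was small beside its error: -0.05 ± 0.0799 on the log2 scale for Kcng1, 0.06 ± 0.0696 for Kcnh4, 0.01 ± 0.0554 for Kcnab1 and 0.03 ± 0.0454 for Kcnj4. In cortex the same 3 tests called 0 of 79 members (0.0442%, 0.0552% and 0% of all genes), with 1, 5 and 4 members under an unadjusted 0.05 and 0 called by DESeq2. A missed threshold does not show that the label had no effect, and the spread of Polq itself within that label is given above.

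In cortex the members changed little. Of 79 tested, 0 were called between Q140 and wild type by edgeR (0.348% of all genes called; 13 members at an unadjusted p under 0.05), and DESeq2 called 2. On the Polq+/- background 2 of 79 members were lower, beside 0.337% of genes called and 0.215% lower. This count was 0 on FPKM and without the 4 mice of low Polq, and from 0 to 4 when 1 library was left out.

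With all 16 carriers against 16 non-carriers in cortex, 9 members were lower and 0 higher, 11.4% of 79, beside 2.46% of genes called and 1.61% lower. They included the pores Kcnc1 (-0.06 ± 0.0174), Kcnj9 (-0.07 ± 0.0153), Kcnj10 (-0.17 ± 0.037) and Kcnk4 (-0.12 ± 0.0252), the auxiliary subunits Kcnab3 (-0.18 ± 0.0438) and Kcnip3 (-0.12 ± 0.0309), and the silent subunit Kcns1 (-0.13 ± 0.032). All were small, and the groups overlapped for each of the 9. Kcns1 was under the non-carriers' median in 16 of 16 carriers, Kcnc1 and Kcnj9 in 15, and Kcnj10 in 14. Kcnj10 ran from 214 to 265 CPM in wild type, 188 to 295 in Polq+/-, 186 to 234 in Q140 and 178 to 256 in Q140 Polq+/-. Of the 10 astrocyte markers 2 were lower and 0 higher in the same comparison (median -0.05), with summed cortical levels of 4660 to 5150 CPM in wild type, 4770 to 5570 in Polq+/-, 4350 to 5040 in Q140 and 4520 to 5180 in Q140 Polq+/-; their part was not tested. The calls of Kcnc1, Kcnj9 and Kcns1 were lost on FPKM, those of Kcnj10, Kcnk4 and Kcns1 with the plate column as a term, those of Kcnab3 and Kcnip3 with no filter on low counts, and that of Kcnab3 also without the 4 mice of low Polq.

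**Figure D5:**
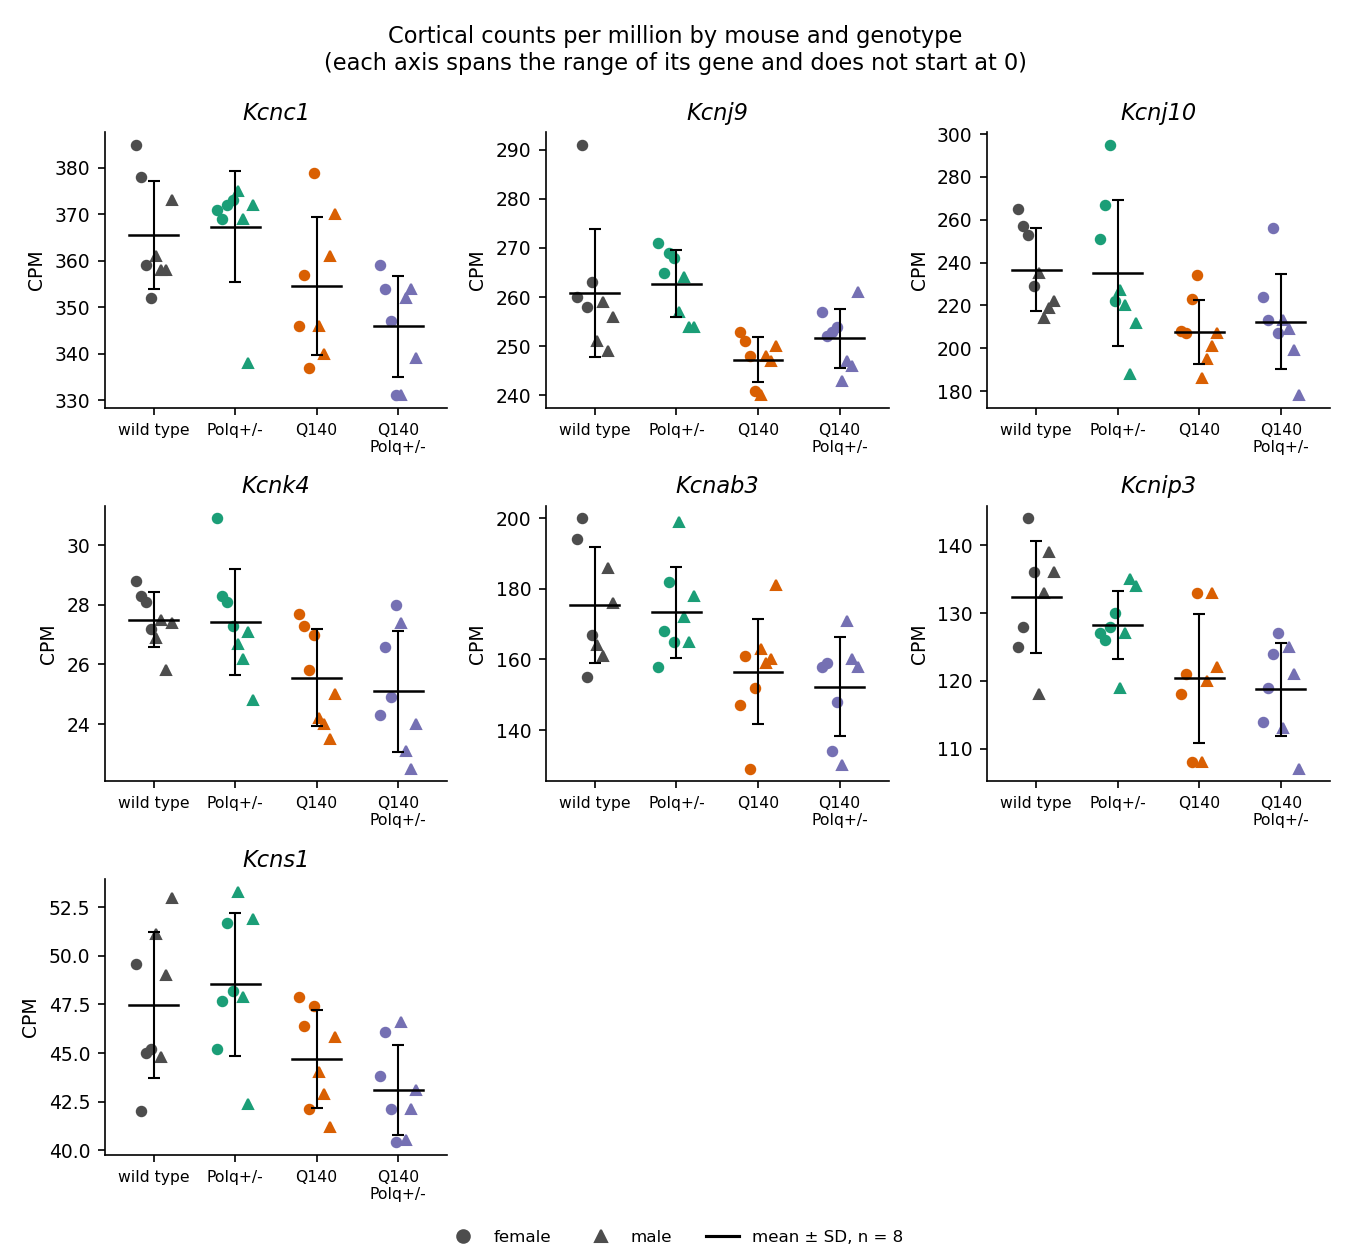
Cortical CPM of Kcnc1, Kcnj9, Kcnj10, Kcnk4, Kcnab3, Kcnip3 and Kcns1, a part of the 9 members called lower in 16 Q140 carriers against 16 non-carriers. Each mouse is shown (circles female, triangles male), with the mean and SD of 8 mice a genotype. Each vertical axis spans its gene's range and does not start at 0. The carriers' values overlap the non-carriers' for every gene shown.

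The difference between tissues in the Q140 effect (all 16 carriers against all 16 non-carriers) was tested directly, with the mouse as a block since each gave both tissues. It was called for 33 of 82 members, 14 with a more positive and 19 with a more negative effect in striatum, beside 32.1% of genes called (15.7% and 16.3%). It was 0.94 ± 0.0766 on the log2 scale for Kcng1 (adjusted p = 2.56e-11), -0.90 ± 0.051 for Kcnh4 (8.72e-16), -0.53 ± 0.0292 for Kcnab1 (1.47e-18) and -0.51 ± 0.027 for Kcnj4 (5.72e-19). Cortical medians in wild type and Q140 were 23.2 and 22.3 CPM for Kcng1, 43.5 and 44.0 for Kcnh4, 91.0 and 88.6 for Kcnab1, and 106 and 112 for Kcnj4. The cortical ranges of these groups overlapped for all 4 genes.

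Members that did not pass the filter are accounted for by their levels. In striatum 16 were not tested: Kcna7, Kcna10, Kcne1, Kcne2, Kcne3, Kcnj1, Kcnj13, Kcnj15, Kcnk7, Kcnk15, Kcnk16, Kcnk18, Kcnmb3, Kcnmb4os1, Kcnrg and Kcnv2. The highest of these in wild-type striatum was Kcnrg, at 0.164 ± 0.0621 FPKM. In cortex 18 were not tested, the same list without Kcnj13 and with Kcnh8, Kcnj5 and Kcnn4. Kcne2 and Kcnj13, channel genes of choroid plexus epithelium, were at 0.129 and 0.155 CPM or less in every wild-type striatal library, but reached 9.11 and 14.4 CPM in Polq+/- F3, the library with choroid plexus markers.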

How the data were processed

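RNA was measured in 64 libraries, 1 striatal and 1 cortical from each of 32 mice. Per the submitters' processing notes, the authors used STAR 2.7.5c, SAMtools 1.10 and HTSeq 0.12.3 with build GRCm38. Not given in the sources used here are the annotation and the strand setting of the counting. Deposited by the authors were read counts per gene and FPKM values; a check over 15456 genes found 1 gene length per gene behind the FPKM of all libraries (largest relative spread 6.94e-09). The deposited tables held 0 columns of other samples.

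Counts as deposited were tested with edgeR 4.0.16 (quasi-likelihood, robust, TMM scaling, filterByExpr by genotype) in R 4.3.3, with sex as a covariate and all 32 libraries of a tissue in 1 fit. Tissue comparisons used the 64 libraries together and treated each mouse as a block. P-values were adjusted by Benjamini-Hochberg over all genes tested and called under 0.05; standard errors were derived from the F statistic. CPM values are TMM-scaled within a tissue, and FPKM serves for levels between genes or tissues. Replicates are separate mice. The scripts were tested on simulated data.

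Alternatives were DESeq2 1.42.0, its size factors in edgeR, limma 3.58.1 on log2(FPKM + 0.1) and log2(FPKM + 1), no filter, no sex term, a fit of only the groups compared, a replicate block, plate column, mouse-name prefix, a threshold of 0.1, and leaving out libraries. The members and gene lists were chosen with earlier results of these data known. Named members were the called ones of at least 1 CPM (up to 15 largest in each direction per striatal Q140 comparison and up to 10 elsewhere), the 10 most abundant in each wild-type tissue, the most abundant of each family, Kcnj10, Kcnj16, Kcnj8, Kcnj13, Kcne2 and Kcnq1ot1, and called partners. Some genes that this rule names are not reported here. Other members named were chosen after their values were seen.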

Additional observations from a re-analysis of the deposited data

Results flagged for a closer look

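The check took 144 sets, each the values of 1 gene in the 8 mice of 1 group. In 11 of them 1 mouse lay far from the others by Dixon's criterion, which chance alone meets in about 1 of 20 sets. The sets draw on the same libraries again and again, so they are not independent. In striatum, Polq+/- F3 had Kcne2 at 9.11 CPM (others 0.0498 to 0.161) and Kcnj13 at 14.4 CPM (0.0313 to 0.241). Wild type M3 had Kcnh1 at 53.5 CPM (72.8 to 83.5) and Kcnq1ot1 at 15.6 CPM (23.0 to 29.5), and wild type M2 had Kcnj3 at 27.9 CPM (18.1 to 21.0). Kcnj4 was high in Q140 M3, at 198 CPM (169 to 182), and low in Q140 Polq+/- F2, at 167 CPM (183 to 193), a mouse that was also low in cortex, at 104 CPM (109 to 112). Kcnt2 was at 13.8 CPM in Q140 Polq+/- F4 (10.5 to 11.8). In cortex, wild type F2 had Kcnip2 at 198 CPM (136 to 160) and Kcnj13 at 0.993 CPM (0.422 to 0.633).

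The Q140 effect differed between striatum and cortex, by the test of that difference, for the members given here. Differences are striatum minus cortex on the log2 scale. Among voltage-gated pores they were -0.90 for Kcnh4, -0.45 for Kcnh3, 0.29 for Kcnh1, 0.30 for Kcnh6, -0.33 for Kcnq5, -0.18 for Kcna4 and -0.14 for Kcnd2. Among silent and auxiliary subunits they were 0.94 for Kcng1, -0.13 for Kcns1, 0.18 for Kcnv1, -0.53 for Kcnab1, 0.55 for Kcnab3, -0.23 for Kcnip2, -0.25 for Kcnip3 and -0.51 for Kcne1l. Among inward rectifiers they were -0.51 for Kcnj4, 0.44 for Kcnj3, 0.19 for Kcnj9, 0.16 for Kcnj10 and -0.32 for Kcnj8. Among the remaining pores they were -0.16 for Kcnk1, -0.37 for Kcnk2, 0.26 for Kcnn1, -0.16 for Kcnn3, -0.34 for Kcnt1, 0.17 for Kcnt2 and 0.27 for Kcnu1. For the non-coding Kcnq1ot1 the difference was 0.24.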

How the results depend on the processing

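Of 132 called values of named members, 108 stayed called under every alternative run and 0 changed direction, and 1312 of 1387 alternative values kept their call. The plate column as a term ended the most calls, 15 of 92. The counts of members called stayed within 1.5 times the reported count under every alternative run except in cortex. There, Q140 against wild type gave 2 members with DESeq2 and 1 each with only the groups compared and with the plate column, in place of 0. Q140 Polq+/- against Polq+/- in cortex gave 5 with DESeq2, 0 with limma on log2(FPKM + 0.1), 0 on log2(FPKM + 1), 1 with no filter on low counts, 1 with the plate column, 1 with the mouse-name prefix as a random block and 0 without the 4 mice of low Polq, in place of 2, and from 0 to 4 when 1 library was left out. The causes were not tested. Same-numbered mice of different genotypes had a median correlation of deviations of 0.0111 in striatum (-0.298 to 0.304) and 0.0179 in cortex (-0.0878 to 0.157). Each library was also matched to its most similar library of the same sex among the other genotypes. That match had the same number for 13 of 32 libraries in each tissue. The share expected by chance is not given here, so whether replicate numbers pair the mice was not settled. With the replicate number as a block, the cortical count for Q140 against wild type was 1, and the other counts stayed within 1.5 times. Members near the filter have few reads, so smaller differences in them may have been missed at this depth. A large difference was called in striatum for Kcnh8, which has few reads.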
